A study of Mus musculus with 9 samples.

Results

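Nnt, 4833420G17Rik and Tmem267 are 3 neighbouring protein-coding genes on mouse chromosome 13, described here by the chromatin contacts listed for them in thymocytes of diabetes-prone NOD mice, of C57BL/6J mice and of their cross. The locus was chosen by PETs (sequenced read pairs) summed per gene, out of 21627 protein-coding genes, for the difference between NOD and C57BL/6J in contacts held near Smc1, so that difference is described and not tested. Tmem267 and 4833420G17Rik showed that difference, and the strains overlapped for Nnt. A contact was counted for a gene when either of its anchors, the DNA segments that it joins, overlapped the gene body or the 5 kb on either side. Between 2 interactions (BL6 H3K27ac library 1) and 65 interactions (NOD Smc1 library 1) of a table touched at least 1 of these gene windows.

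HiChIP, a chromosome conformation capture with immunoprecipitation, was used on sorted thymocytes that carry both CD4 and CD8, called double-positive thymocytes. The antibodies recognised Smc1, a subunit of the cohesin ring, or H3K27ac, an acetylated histone of active promoters and enhancers. The groups were NOD/ShiLtJ with Smc1 (2 libraries), (NOD/ShiLtJ X C57BL/6) F1 with Smc1 (1 library, C57BL/6 substrain not given in the labels), C57BL/6J with Smc1 (2 libraries), NOD/ShiLtJ with H3K27ac (2 libraries) and C57BL/6J with H3K27ac (2 libraries). C57BL/6J is called BL6 below, and no age, sex or treatment is given in the sources used here. Both Smc1 libraries of a strain carry the same replicate code, Rep1B, in their titles, so their spread may be technical, whereas the codes of the H3K27ac libraries differ. For the 4 H3K27ac samples the antibody field was followed, although their titles carry Smc1. NOD reads were mapped to the NOD genome and shifted to GRCm38 coordinates, BL6 reads were mapped to the BL6 genome, and 1 table of each form was given for the F1 cross, so strain and mapping genome cannot be told apart between NOD and BL6 libraries.

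Cohesin extrudes loops of chromatin and holds distant sites together, often with the boundary protein CTCF at the loop base, and H3K27ac HiChIP lists contacts among active promoters and enhancers. Nnt encodes the nicotinamide nucleotide transhydrogenase of the inner mitochondrial membrane, which makes mitochondrial NADPH for peroxide removal, and C57BL/6J mice are known to carry a deletion inside this gene. Tmem267 encodes a predicted transmembrane protein. 4833420G17Rik encodes a protein to which no role is given here.

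In GRCm38 coordinates Nnt (gene ID 18115) lay at chr13:119335527-119409257, 4833420G17Rik (gene ID 67392) at chr13:119462015-119486120 and Tmem267 (gene ID 633640) at chr13:119488086-119610459. Paip1 lay between Nnt and 4833420G17Rik at chr13:119428331-119460323, and Ccl28 followed Tmem267 at chr13:119623819-119654359. The contacts that follow turned on a segment at the start of Tmem267, and the RefSeq promoter windows of this gene (GRCm38.p6, plus strand, 300 bases each) are shown because that segment overlapped them, the second in all 5 NOD-genome tables and the first in the 4 NOD libraries. The first window lay at chr13:119487836-119488135 and the second at chr13:119488223-119488522. Capitals mark GATC, the site cut by the enzyme MboI of these libraries, and CCCTC or its reverse complement GAGGG, the letters from which CTCF takes its name.
Tmem267 first promoter window: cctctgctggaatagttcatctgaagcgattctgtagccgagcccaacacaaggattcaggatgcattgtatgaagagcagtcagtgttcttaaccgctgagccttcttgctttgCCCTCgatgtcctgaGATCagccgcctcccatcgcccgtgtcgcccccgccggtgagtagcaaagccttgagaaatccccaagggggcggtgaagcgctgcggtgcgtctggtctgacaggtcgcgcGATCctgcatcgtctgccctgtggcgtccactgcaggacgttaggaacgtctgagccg
Tmem267 second promoter window: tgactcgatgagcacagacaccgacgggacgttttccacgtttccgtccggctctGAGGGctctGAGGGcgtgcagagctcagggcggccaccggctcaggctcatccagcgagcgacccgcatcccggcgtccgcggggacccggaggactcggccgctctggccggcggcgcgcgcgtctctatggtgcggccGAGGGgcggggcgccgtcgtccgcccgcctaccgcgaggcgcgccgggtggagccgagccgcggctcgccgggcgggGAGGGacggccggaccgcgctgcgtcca
The first window held 2 GATC sites and 1 CCCTC on either strand, and the second held 0 GATC sites and 4 matches to CCCTC, all 4 of them on the opposite strand as GAGGG. These letters are common, since 48.0% of the 32851 promoter windows in the RefSeq table held GATC and 66.0% held CCCTC on either strand. The second window was rich in G and C, at 76.0%, and held 50 CpG, against medians of 52.7% and 7 CpG over all windows. A match is a description of the letters and not of a bound site. The promoter window of 4833420G17Rik, at chr13:119462509-119462808, overlapped no anchor of a listed interaction in any of the 10 tables.

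The tables listed 404343 to 2971366 read pairs (paired-end tags, PETs) each, and only interactions with at least 2 PETs and a q-value of at most 0.05. A missing contact was therefore outside a listing limit and was not measured as 0. Values are given as PETs per 1000000 listed PETs of the table (PPM), and intervals (95%, exact Poisson) cover counting error only. Of 9 genes that mark double-positive thymocytes, such as Cd4 and Rag1, all 9 had listed contacts in 7 of 10 tables; Ptcra was unlisted in the F1 library on both genomes, and Ptcra and Cd3e in NOD Smc1 library 2, where the summed level of the list was 93.9 PPM. Over the other tables that sum was 405 PPM in NOD Smc1 library 1, 407 PPM and 431 PPM in the F1 library on the NOD and BL6 genomes, 250 to 301 PPM in BL6 Smc1 libraries, 791 to 845 PPM in NOD H3K27ac libraries and 514 to 1719 PPM in BL6 H3K27ac libraries. Genes that mark B cells, myeloid cells, erythroid cells, thymic epithelium and natural killer cells (3 or 4 genes per list) had listed contacts as well, with at most 1 gene of a list unlisted in a table. The sums of the strains overlapped except for the erythroid list with Smc1, at 28.9 to 46.6 PPM in NOD and 59.3 to 70.3 PPM in BL6, and the natural killer list with H3K27ac, at 19.8 to 52.0 PPM in NOD and 64.3 to 69.3 PPM in BL6. Contacts are listed for genes whether or not they are transcribed, and the part of cell composition in the results was not tested.

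A segment at the start of Tmem267 was joined to a cluster of segments at the far end of the gene, more than 100 kb away, in every NOD-genome table and in no BL6-genome table. The start segment lay at chr13:119487926-119489838 in NOD Smc1 library 1. The cluster held segments called A to D here, which lay at chr13:119596533-119598585 (A, inside Tmem267), chr13:119609084-119611857 (B, across its end), chr13:119612594-119613800 (C) and chr13:119614548-119618129 (D), with C and D between Tmem267 and Ccl28. Other anchors between A and B were counted in the cluster as well. Such an anchor at chr13:119600952-119602666 had 51 PETs with A in NOD Smc1 library 1. At chr13:119600953-119603464 an anchor had 103 PETs with A in the F1 library on the NOD genome. Exons and introns were not analysed here, because the gene table holds gene bodies without them.

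**Figure D1:**
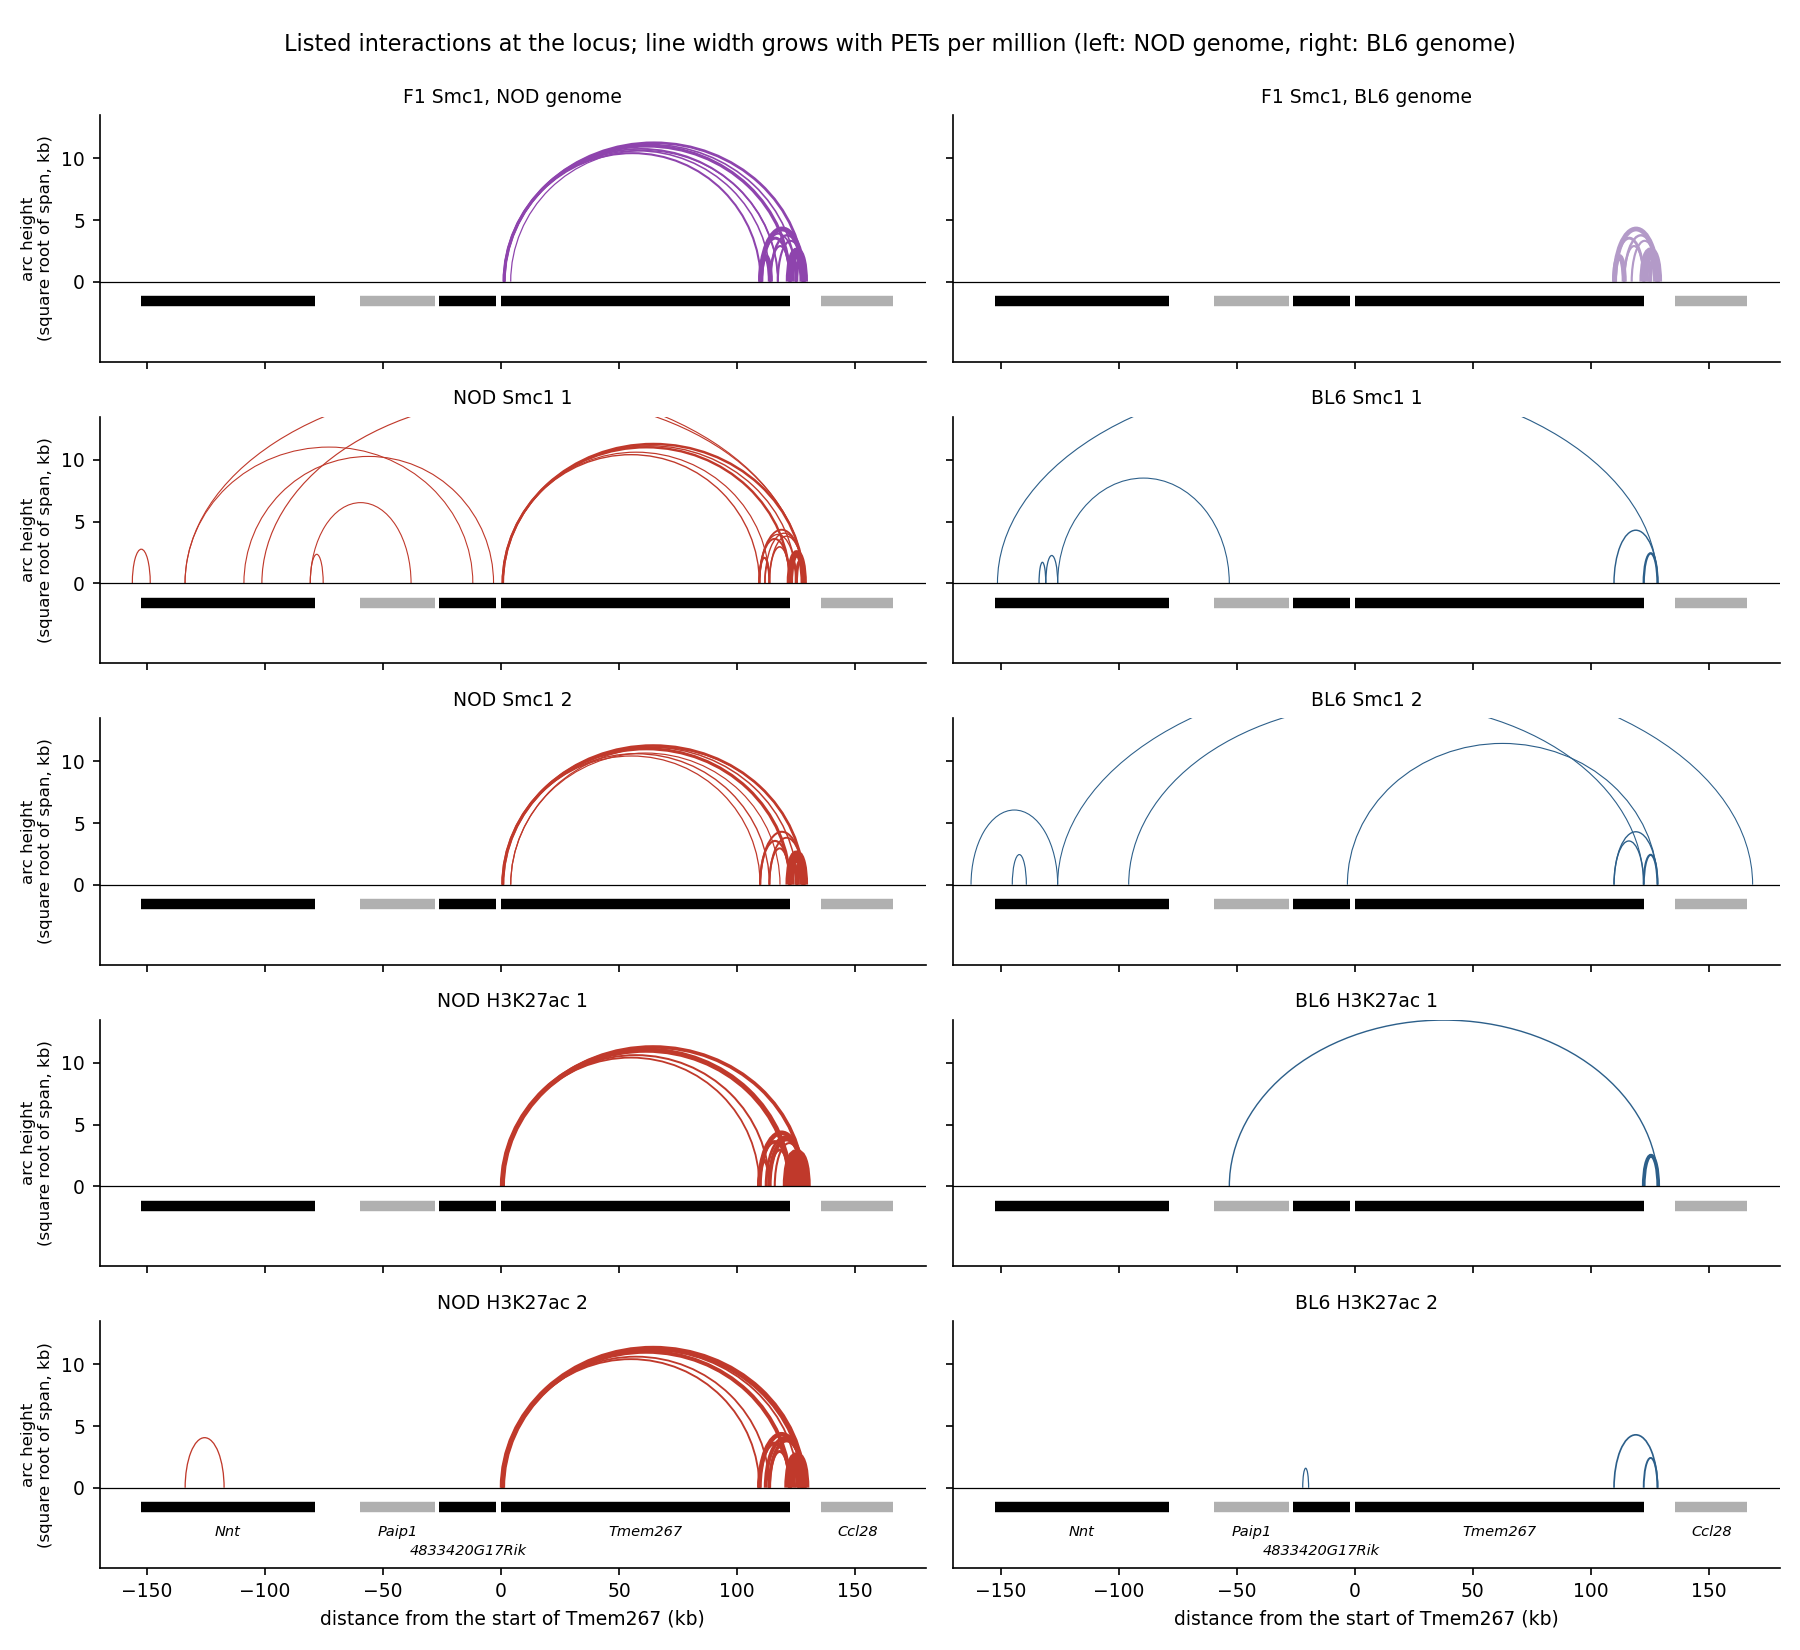
Listed interactions around the 3 genes in each table, as arcs between anchor midpoints, against the distance from the start of Tmem267 in kb; arc height is the square root of the span, line width grows with PPM, arcs above the frame are cut, and arcs with an end outside the frame are left out. Black bars are Nnt, 4833420G17Rik and Tmem267 and grey bars are other genes; arcs from the start of Tmem267 to its far end appear in the 5 tables on the NOD genome (left), and on the BL6 genome (right) the nearest like it is the 7-PET arc of BL6 Smc1 library 2, and the F1 panels in the top row are 1 library.

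Contacts between the start segment and the cluster numbered 191 and 238 PETs in NOD Smc1 libraries 1 and 2, or 106 and 144 PPM. In the F1 library on the NOD genome they numbered 178 PETs, or 202 PPM. In NOD H3K27ac libraries 1 and 2 they numbered 97 and 150 PETs, or 240 and 279 PPM. They were spread over 4 to 7 interactions per table with spans of 109 to 128 kb, and the highest q-value deposited for any of them was 0.00531. None was listed in BL6 Smc1 libraries 1 and 2, in the F1 library on the BL6 genome or in BL6 H3K27ac libraries 1 and 2. No fold is given, since the BL6-genome tables list nothing to divide by. The counts include contacts of a second anchor beside the start segment. In NOD Smc1 library 2 it lay at chr13:119491647-119492833 and had contacts of 6 and 9 PETs with the cluster. In the F1 library on the NOD genome it lay at chr13:119491630-119492831 and had 5 PETs.

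The start segment was joined to segments A, B and D in all 5 NOD-genome tables. With segment B it had 72 and 98 PETs in NOD Smc1 libraries, 55 PETs in the F1 library on the NOD genome and 47 and 46 PETs in NOD H3K27ac libraries. With segment D it had 77 and 78 PETs in NOD Smc1 libraries, 43 PETs in the F1 library and 30 and 67 PETs in NOD H3K27ac libraries. Segments B and D took the most in each of these 5 tables, and segment A, the nearest, took 10 to 26 PETs in the Smc1 tables and 9 and 13 PETs in the H3K27ac tables. Segment C took 12 to 21 PETs in 4 of these tables and was not listed as a partner in NOD H3K27ac library 1. Anchors of the cluster outside A to D took further PETs, such as 16 at chr13:119600956-119602665 in NOD Smc1 library 2. Contacts of the start segment with places outside the cluster had 7 and 2 PETs in NOD Smc1 libraries 1 and 2 and were listed in no other table.

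In the BL6-genome tables the start segment itself was not listed as an anchor of any contact. The nearest anchor to the start of Tmem267 was 2.57 kb away in BL6 Smc1 library 2, at chr13:119484404-119485517, and 52.6 kb away in BL6 Smc1 library 1. In BL6 H3K27ac libraries 1 and 2 it was 52.6 kb and 10.8 kb away, and in the F1 library on the BL6 genome 103 kb. The anchor of BL6 Smc1 library 2 was joined to segment D by 7 PETs. Other weak contacts crossed the gene in BL6 libraries from anchors farther off, such as 5 PETs between chr13:119434387-119435515 and segment D in BL6 H3K27ac library 1. The start segment held 6.17 to 9.27 times the reads of the median anchor in the 5 NOD-genome tables, against 0.716 times for the nearest anchor of BL6 Smc1 library 2.

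Between the start segment and the cluster lay a stretch of 102.4 kb, chr13:119492834-119595257, with no anchor in any of the 10 tables. It took up 83.7% of the body of Tmem267. Of 439 stretches of at least 50 kb without an anchor, 233 were at least as long, 14 of them on chromosome 13. The deposited distance of a contact on the NOD genome could be set against its span in GRCm38 coordinates. For each of the 4 to 7 contacts per table between the start segment and the cluster the difference was 0 bases, whereas between 8.73% and 9.59% of all contacts of 100 to 130 kb in these tables showed a difference of 0, with a median absolute difference of 17 to 20.3 bases. These contacts begin at the start segment or at the second anchor beside it and cross the same stretch. Their differences of 0 are therefore not independent, within or between tables, and describe the coordinates of this stretch alone. The genome sequence of the stretch was not read here, and whether reads can be placed in it was not tested.

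The larger part of the contacts counted for Tmem267 lay inside the cluster at its far end, and these were listed in all 10 tables. They numbered 720 and 868 PETs in NOD Smc1 libraries, or 400 and 526 PPM. In the F1 library they numbered 662 PETs on the NOD genome, or 753 PPM, and 627 PETs on the BL6 genome, or 749 PPM. In BL6 Smc1 libraries they numbered 101 and 145 PETs, or 48.3 and 48.8 PPM. Both NOD libraries lay above both BL6 libraries, and the F1 library lay above all 4 on either genome. By sums per gene with Smc1, both NOD libraries lay above both BL6 libraries for 15.9% of all genes tested.

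With H3K27ac, contacts inside the cluster numbered 346 and 439 PETs in NOD libraries, or 856 and 816 PPM, and 37 and 56 PETs in BL6 libraries, or 76.7 and 43.6 PPM. The means were 836 ± 28.4 PPM in NOD and 60.2 ± 23.4 PPM in BL6 (SD, n = 2 each), a ratio of 13.9, and the groups did not overlap. By sums per gene with H3K27ac, both NOD libraries lay above both BL6 libraries for 11.2% of all genes tested. The test that follows is of the contacts inside the cluster. An exact two-sided permutation test of this single value gave p = 0.333, the smallest that 2 against 2 libraries allow. The limits of the cluster were set from the listed anchors of these same data after they were seen, so nothing is read from this p.

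**Figure D2:**
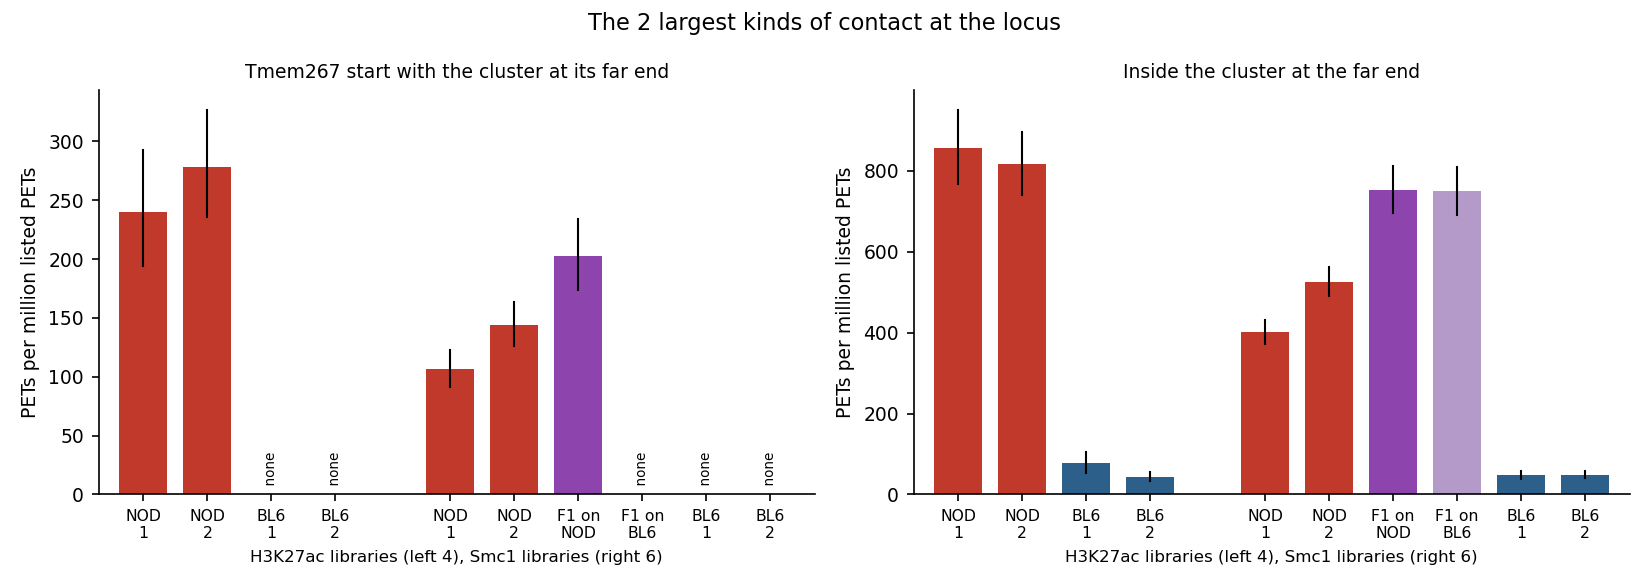
PPM per table for contacts between the start of Tmem267 and the cluster at its far end (left) and for contacts inside the cluster (right); bars are tables, lines are exact 95% Poisson intervals, and "none" marks a table that lists no such contact. Contacts of the start are listed at 106 to 279 PPM on the NOD genome and nowhere on the BL6 genome, while contacts inside the cluster reach 753 and 749 PPM for the F1 library on the NOD and BL6 genomes.

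The strongest contact of the locus joined segments B and D, about 6 kb apart, and was the only pair of named segments listed in all 10 tables. It had 275 and 372 PETs in NOD Smc1 libraries, 190 and 192 PETs in the F1 library on the NOD and BL6 genomes, and 77 and 93 PETs in BL6 Smc1 libraries. With H3K27ac it had 153 and 157 PETs in NOD libraries and 37 and 32 PETs in BL6 libraries. Per 1000 reads at its anchors it had 17.4 and 16.4 PETs in NOD Smc1 libraries, 14.2 and 14.5 PETs in the F1 library on the NOD and BL6 genomes, and 12.7 and 10.7 PETs in BL6 Smc1 libraries. Set per anchor read in this way, NOD still lay above BL6 in both libraries, by a smaller ratio than in PPM.

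Reads at the anchors themselves differed in the same direction. Segment D held 33.0 and 32.2 times the median anchor of its table in NOD Smc1 libraries, 22.2 and 22.0 times in the F1 library on the NOD and BL6 genomes, and 9.33 and 9.94 times in BL6 Smc1 libraries. With H3K27ac it held 24.1 and 25.7 times the median in NOD libraries and 5.99 and 9.41 times in BL6 libraries. Segment D thus stood among the highest anchors of every table, between rank 1 and rank 15, BL6 tables included. Segment C held 8.04 and 8.61 times the median in NOD Smc1 libraries, against 1.87 and 1.86 times in BL6 Smc1 libraries, and its contacts with B and D were listed in no BL6 library.

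**Figure D3:**
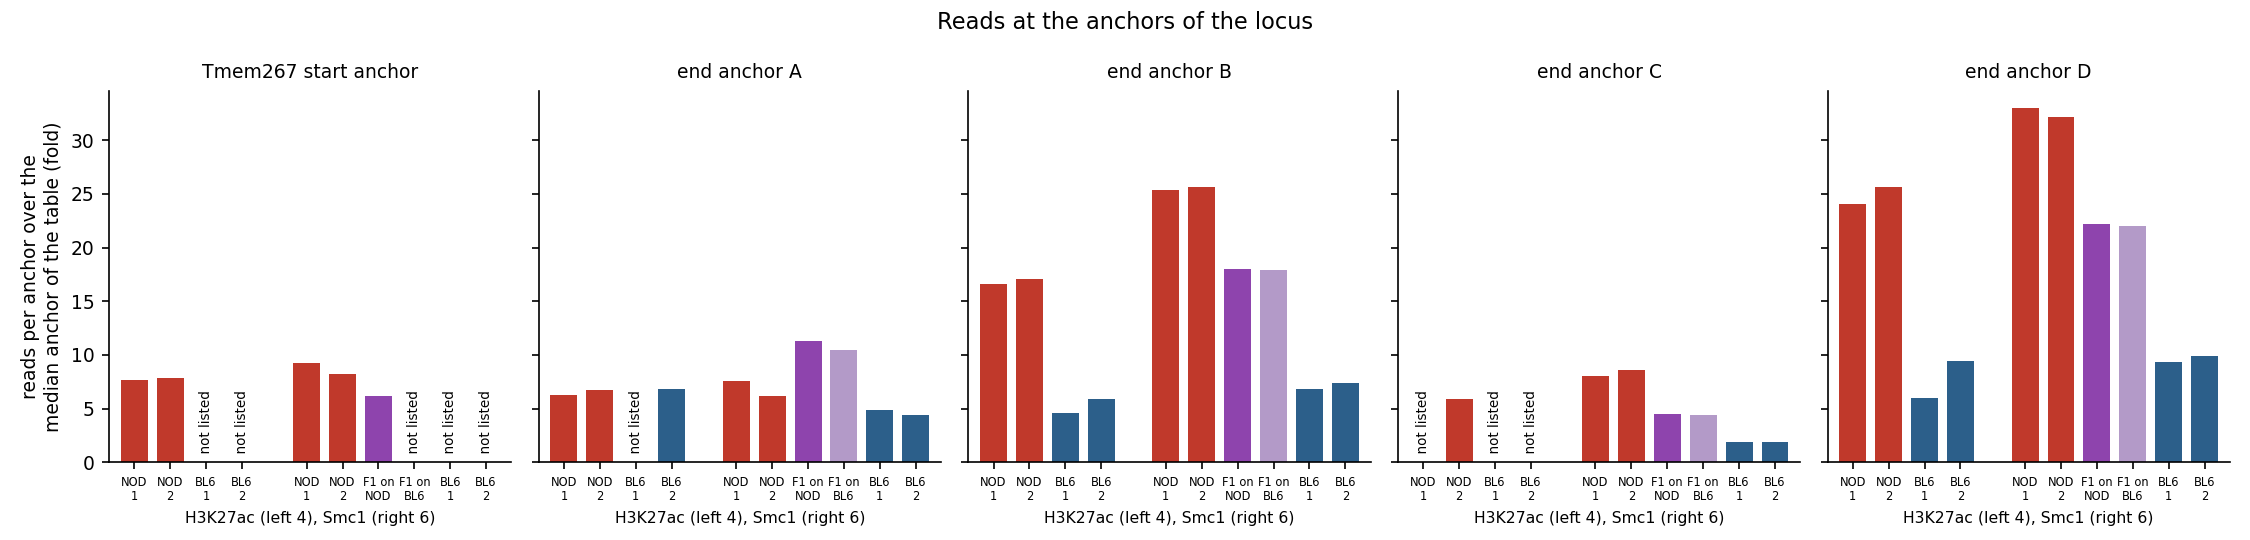
Reads at the start anchor of Tmem267 and at anchors A to D at its far end, as fold over the median anchor of the same table; bars are tables and "not listed" marks a table without that anchor. Anchor D stands at 22.0 to 33.0 times the median in the NOD and F1 Smc1 tables and at 9.33 and 9.94 times in the BL6 Smc1 tables.

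Summed over its window, Tmem267 had 1006 and 1181 PETs in NOD Smc1 libraries, or 559 and 715 PPM, and 157 and 189 PETs in BL6 Smc1 libraries, or 75.1 and 63.6 PPM. These values chose the gene. The mean was 637 ± 110 PPM in NOD and 69.4 ± 8.15 PPM in BL6 (SD, n = 2 each), and the fitted log2 difference was 3.24 ± 0.28 (SE). By PPM in its table, Tmem267 ranked 97th and 48th of all genes in NOD Smc1 libraries and 4295th and 4837th in BL6 Smc1 libraries.

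The window of 4833420G17Rik had 204 and 225 PETs in NOD Smc1 libraries, or 113 and 136 PPM, against no listed contact and 11 PETs, or 3.70 PPM, in BL6 Smc1 libraries. These PETs came through the start segment of Tmem267, which lies within 5 kb of the end of 4833420G17Rik. Of the PETs in its window, 198 of 204 and 225 of 225 in NOD Smc1 libraries, 173 of 173 in the F1 library on the NOD genome, and 97 of 97 and 150 of 154 in NOD H3K27ac libraries had an anchor in that segment. Counted over the gene body alone, the F1 library listed no contact of 4833420G17Rik on either genome. The count of this gene and that of Tmem267 are therefore not independent.

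Nnt, at the other side of Paip1, did not share the pattern. Its window had 56 and 8 PETs in NOD Smc1 libraries, or 31.1 and 4.85 PPM, 4 PETs on either genome in the F1 library, or 4.55 PPM on NOD and 4.78 PPM on BL6, and 62 and 47 PETs in BL6 Smc1 libraries, or 29.7 and 15.8 PPM. The strains overlapped: NOD library 1 was the highest of these tables and NOD library 2 lay below both BL6 libraries. With H3K27ac it had 4 PETs in NOD library 2, 4 PETs in BL6 library 2 and none listed in either library 1. The fitted log2 difference between NOD and BL6 with Smc1 was -0.34 ± 0.77 (SE), and its sign rested on single libraries, at -2.07 without NOD library 1, 0.41 without NOD library 2 and 0.13 without BL6 library 1.

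The contacts of Nnt were weak and rarely shared. Of 18 interactions in NOD Smc1 library 1, 11 rested on 2 PETs, as did 13 of 17 in each BL6 Smc1 library, and the strongest had 8 PETs in NOD Smc1 library 1 and 15 PETs in BL6 Smc1 library 1. Contacts between Nnt and the cluster at the far end of Tmem267 had 10 PETs in NOD Smc1 library 1, none listed in NOD Smc1 library 2 and 5 PETs in each BL6 Smc1 library. For the 10 interactions whose first anchor lay in the Nnt window in 2 of the NOD-genome tables, the deposited distance minus the GRCm38 span was between -15 and 0 bases.

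**Figure D4:**
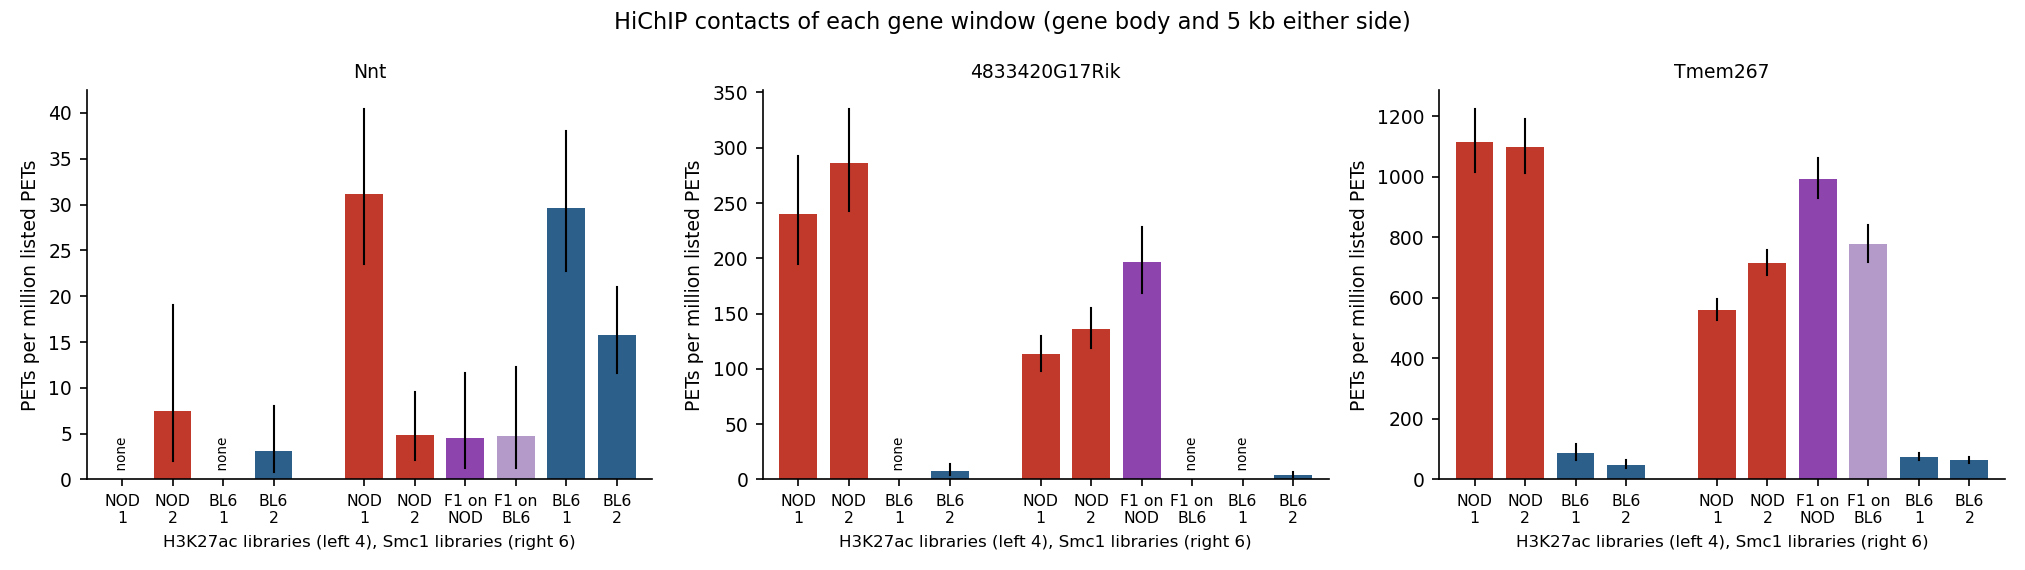
PPM in the windows of Nnt, 4833420G17Rik and Tmem267 in each table; bars are tables, lines are exact 95% Poisson intervals, "none" marks a table that lists no contact, and the vertical scales differ between panels. Tmem267 stands at 559 to 1115 PPM in the NOD and F1 tables and at 49.1 to 87.1 PPM in the BL6 tables, whereas the strains overlap for Nnt.

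Of all genes tested with Smc1, 32 of 18118 (0.177%) were higher in NOD at an adjusted p under 0.05 by edgeR's quasi-likelihood test with Benjamini-Hochberg adjustment, among them Tmem267 and 4833420G17Rik, and nothing is read from this because the same contrast chose the genes. The count called in either direction, 35 genes (0.193%), was 647 without NOD library 1, 55 without NOD library 2 and 6 without BL6 library 2. The H3K27ac libraries are separate from the Smc1 libraries of that contrast, although the genes were chosen with earlier results of all tables known. With H3K27ac Tmem267 had 451 and 591 PETs in NOD libraries, or 1115 and 1098 PPM, and 42 and 63 PETs in BL6 libraries, or 87.1 and 49.1 PPM. The means were 1107 ± 12.4 PPM in NOD and 68.1 ± 26.9 PPM in BL6 (SD, n = 2 each), and the groups did not overlap. 4833420G17Rik had 97 and 154 PETs in NOD H3K27ac libraries, or 240 and 286 PPM, and none listed and 10 PETs, or 7.79 PPM, in BL6 H3K27ac libraries.

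Neither gene passed the test with H3K27ac. The log2 difference of Tmem267 was 4.02 ± 0.60 (SE), with an adjusted p of 0.613 by edgeR's quasi-likelihood test with Benjamini-Hochberg adjustment over 14136 genes. That of 4833420G17Rik was 5.73 ± 1.09 (SE), with an adjusted p of 1.00 by the same test and adjustment, and Nnt was under the filter on low counts. No gene at all was called (0 of 14136, 0.0%) by edgeR, which gave 114 genes an unadjusted p under 0.05, while DESeq2 called 25 of 18651 genes (0.134%), all higher in NOD. Both NOD libraries lay above both BL6 libraries for the 2 of these genes that were tested and for 11.2% of all genes tested, and the 2 share the start segment.

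The call on Tmem267 with H3K27ac depended on the tool and on single libraries. DESeq2 gave it a log2 difference of 4.05 with an adjusted p of 4.28e-08, within a range of 4.28e-08 to 1.00 over the 12 alternatives. Without NOD H3K27ac library 1 edgeR's adjusted p was 0.0385, and without NOD H3K27ac library 2 it was 3.27e-05. The difference was above 0 under all 12 alternatives, from 3.64 to 5.03 on the log2 scale. For 4833420G17Rik the adjusted p was 2.03e-05 by DESeq2, and by edgeR 1.82e-04 without NOD library 2 and 0.0167 without BL6 library 2, which left only the library with no listed contact, within a range of 2.03e-05 to 1.00. The number of genes called in all was 8 without NOD library 1, 53 without NOD library 2 and 8 without BL6 library 2.

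Among 815 pairs of 25 kb bins tested with H3K27ac, edgeR's quasi-likelihood test with Benjamini-Hochberg adjustment called 8 (0.982%), and none of them was at this locus. That count was 0 without NOD library 1, 0 without NOD library 2, 17 without BL6 library 1 and 24 without BL6 library 2, and 0 by DESeq2. The bin of the cluster with itself, chr13:119600001-119625000, had 243 and 343 PETs in NOD H3K27ac libraries and 37 and 32 PETs in BL6 H3K27ac libraries. Its log2 difference was 3.55 ± 0.55 (SE), with an adjusted p of 0.0836 by that test. The bin of the start segment, chr13:119475001-119500000, with the bin of the cluster had 88 and 137 PETs in NOD H3K27ac libraries and none listed in either BL6 H3K27ac library, with an adjusted p of 0.0836 too. By unadjusted p these were ranks 10 and 11 of the pairs tested.

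The bin of segment A with the bin of the cluster had 103 and 96 PETs in NOD H3K27ac libraries, against none listed and 24 PETs in BL6 H3K27ac libraries, with an adjusted p of 0.842 by edgeR's quasi-likelihood test. The start bin with the bin of segment A had 9 and 13 PETs in NOD H3K27ac libraries and none listed in BL6, with an adjusted p of 0.881 by the same test. The fifth pair by PPM lay inside Nnt, at chr13:119350001-119375000 with itself. It had 4 PETs in NOD H3K27ac library 2 and 28 PETs in BL6 Smc1 library 1, was listed in no other table, and was under the filter.

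The F1 cross carries both parental chromosomes, and its reads were placed on each genome in turn. Tmem267 had 873 PETs on the NOD genome, or 993 PPM, and 651 PETs on the BL6 genome, or 778 PPM, a ratio of 1.28. Of 6192 genes with at least 50 PETs on the higher genome, 92 (1.49%) were more than 1.5-fold higher on the NOD genome, and Tmem267 was not among them. Counted over contacts of at least 10 kb alone, the ratio of Tmem267 was 1.93, where 59 of 5781 genes (1.02%) were past 1.5-fold. Contacts of the start segment with the cluster made up 202 PPM of its level on the NOD genome and were unlisted on the BL6 genome, while contacts inside the cluster differed by a ratio of 1.01. 4833420G17Rik had 173 PETs on the NOD genome and none listed on the BL6 genome, and Nnt had 4 PETs on each. The same reads underlie both placements, so these are not independent measurements and no test applies.

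Against the parental strains, the F1 library on the BL6 genome had 11.2 times the mean of the BL6 Smc1 libraries for Tmem267, and 15.4 times for contacts inside the cluster. Those contacts were 9 listed interactions in the F1 library on the BL6 genome and 2 and 3 in BL6 Smc1 libraries. On the NOD genome the F1 library had 1.56 times the mean of the NOD Smc1 libraries for Tmem267, and 1.63 times for contacts inside the cluster. The F1 library thus lay above NOD and BL6 libraries alike for the summed contacts of the cluster. On the BL6 genome it lacked the start segment as the BL6 libraries did. The rise over NOD differed between pairs. Segments A and D had 113 and 108 PPM in the F1 library on the NOD and BL6 genomes, against 33.9 and 29.7 PPM in NOD Smc1 libraries. Segments B and D had 216 and 229 PPM, against 153 and 225 PPM, and segments C and D 88.7 and 93.2 PPM, against 63.4 and 121 PPM. The main anchor of segment A spanned 5690 and 5692 bases in the F1 library, against 2053 and 1407 bases. Whether that width bears on the sums was not tested. For Nnt it had 0.253 times the NOD mean on the NOD genome and 0.210 times the BL6 mean on the BL6 genome. The F1 library was not replicated.

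H3K27ac and Smc1 were then compared within a strain, where both antibodies shared a mapping genome. In NOD, Tmem267 had 1115 and 1098 PPM with H3K27ac and 559 and 715 PPM with Smc1. The log2 difference, after TMM scaling, was 0.42 ± 0.46 (SE), with an adjusted p of 0.911 by edgeR's quasi-likelihood test with Benjamini-Hochberg adjustment. That of 4833420G17Rik was 0.70 ± 0.46 (SE), with an adjusted p of 0.835 by edgeR's test. TMM scaling moved all genes by 0.36 on the log2 scale in this comparison, and without it the differences were 0.80 and 1.07 for Tmem267 and 4833420G17Rik.

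In BL6, Tmem267 had 87.1 and 49.1 PPM with H3K27ac and 75.1 and 63.6 PPM with Smc1, and the antibodies overlapped. Its log2 difference was -0.33 ± 0.51 (SE), with an adjusted p of 0.943 by edgeR's quasi-likelihood test, and -0.04 without TMM scaling, which moved all genes by 0.29. Without BL6 H3K27ac library 2 it was 0.05. Nnt had none listed and 3.12 PPM with H3K27ac in BL6, against 29.7 and 15.8 PPM with Smc1, and the log2 difference was -3.74 ± 1.21 (SE), with an adjusted p of 0.563 by edgeR's test. Without BL6 H3K27ac library 2, which left only a library with no listed contact of Nnt, that adjusted p was 0.00687. edgeR called 0 of 16735 genes (0.0%) in NOD and 0 of 17666 genes (0.0%) in BL6, with 1338 and 1198 genes at an unadjusted p under 0.05, while DESeq2 called 365 genes (1.86%) and 220 genes (1.12%). In NOD edgeR called 305 genes without H3K27ac library 1, 1516 without H3K27ac library 2 and 100 without Smc1 library 1, and in BL6 it called 1034 without H3K27ac library 1 and 4809 without H3K27ac library 2.

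The windows of the genes around the 3 carried few contacts. Of 12 other protein-coding genes within 500 kb, 4 had no listed contact in any table and none reached more than 42 PETs in a table. Paip1, which binds the poly(A)-binding protein and lies between Nnt and 4833420G17Rik, had 5 PETs and none listed in NOD Smc1 libraries and 10 and 2 PETs in BL6 Smc1 libraries. Ccl28, a chemokine gene beyond the cluster, had 18 PETs and none listed in NOD Smc1 libraries, 15 PETs on either genome in the F1 library, and 31 and 42 PETs in BL6 Smc1 libraries. Segment D ended short of the Ccl28 window in every table, so PETs inside the cluster were counted for Tmem267 and not for Ccl28. That split rests on the 5 kb width of the windows, and the gene to which the cluster belongs was not tested. Hmgcs1, an enzyme of cholesterol synthesis, had 19 PETs and none listed in NOD and 3 and 19 PETs in BL6 with Smc1. Nim1k, a protein kinase gene, had 31 PETs and none listed in NOD and 17 and 22 PETs in BL6. In the 3 comparisons in which any of these neighbours could be tested, none of the 1 to 3 tested genes was called by edgeR, and none of the 12 passed the filter for NOD against BL6 with H3K27ac. Over all genes tested edgeR called 0.0% for H3K27ac against Smc1 in either strain and 0.193% for NOD against BL6 with Smc1.

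Far contacts of the 3 windows were weak. Interactions with a partner outside the 500 kb around the locus made up 7.44% and 5.63% of the PETs of the locus in NOD Smc1 libraries, 2.62% and 3.36% in the F1 library on the NOD and BL6 genomes, and 28.5% and 20.3% in BL6 Smc1 libraries. With H3K27ac they made up 0.665% and 0.668% in NOD libraries, and in BL6 none was listed in library 1 and 5.19% in library 2. The higher shares in BL6 stood on smaller totals, since the far PETs numbered 78 and 67 in NOD Smc1 libraries and 61 and 47 in BL6 Smc1 libraries. Of the distant sites, 63 were reached in 1 library only, 12 in 2, 2 in 3 and 2 in 4.

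The far contacts of at least 5 PETs described here came from segments B and D. Segment B was joined to chr13:118404658-118407546, 17.4 kb from Mrps30, a gene of the mitochondrial ribosome, by 5 PETs in NOD Smc1 library 1. Another site of segment B, at chr13:118501787-118502872, had 5 PETs in NOD Smc1 library 2. Segment D was joined to chr13:118228893-118230159 by 5 PETs in BL6 Smc1 library 1.

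The other genes of mitochondrial NADPH supply and peroxide removal were set beside Nnt as a list of 21 genes including it. None of the members tested was called by edgeR in any of the 4 comparisons, with 16 tested for NOD against BL6 with H3K27ac, 18 for H3K27ac against Smc1 in NOD, 20 for the same in BL6 and 20 for NOD against BL6 with Smc1. Over all genes tested edgeR called 0.0% in each comparison that used H3K27ac and 0.193% for NOD against BL6 with Smc1. The absence of calls is therefore nothing particular to the list. The median log2 difference of its tested members between NOD and BL6 was -0.13 with H3K27ac and -0.10 with Smc1, beside 0.01 and -0.0028 over all genes tested. Nnt stood low in the list, ranking 14th to 21st of 21 by PPM in each table. Me3, the mitochondrial malic enzyme, had the highest mean over the 10 tables, at 177 PPM, though not the highest level in every table, with 214 and 260 PPM in NOD Smc1 libraries and 117 and 166 PPM in BL6 Smc1 libraries. Txnrd2, the mitochondrial thioredoxin reductase, was next with a mean of 97.6 PPM and had 108 and 54.5 PPM in NOD Smc1 libraries and 124 and 109 PPM in BL6 Smc1 libraries.

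The 5 genes whose sums followed Tmem267 most closely over the 10 tables, by Pearson r of log2(PPM + 1) among 13744 genes, had r of 0.955 to 0.978. The tables share libraries, mapping genomes and strain, so these r are a description. Ifi203, an interferon-inducible gene on chromosome 1 with r of 0.978, had 31.7 and 57.5 PPM in NOD Smc1 libraries, 42.1 and 45.4 PPM in the F1 library on the NOD and BL6 genomes, and no listed contact in any BL6 library. Klra9, a natural killer receptor gene of the Ly49 family on chromosome 6 with r of 0.959, had 37.3 and 125 PPM in NOD Smc1 libraries, 233 and 243 PPM in the F1 library and none listed in BL6. The zinc finger genes Zfp990, Zfp982 and Zfp988 lay on chromosome 4.

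**Figure D5:**
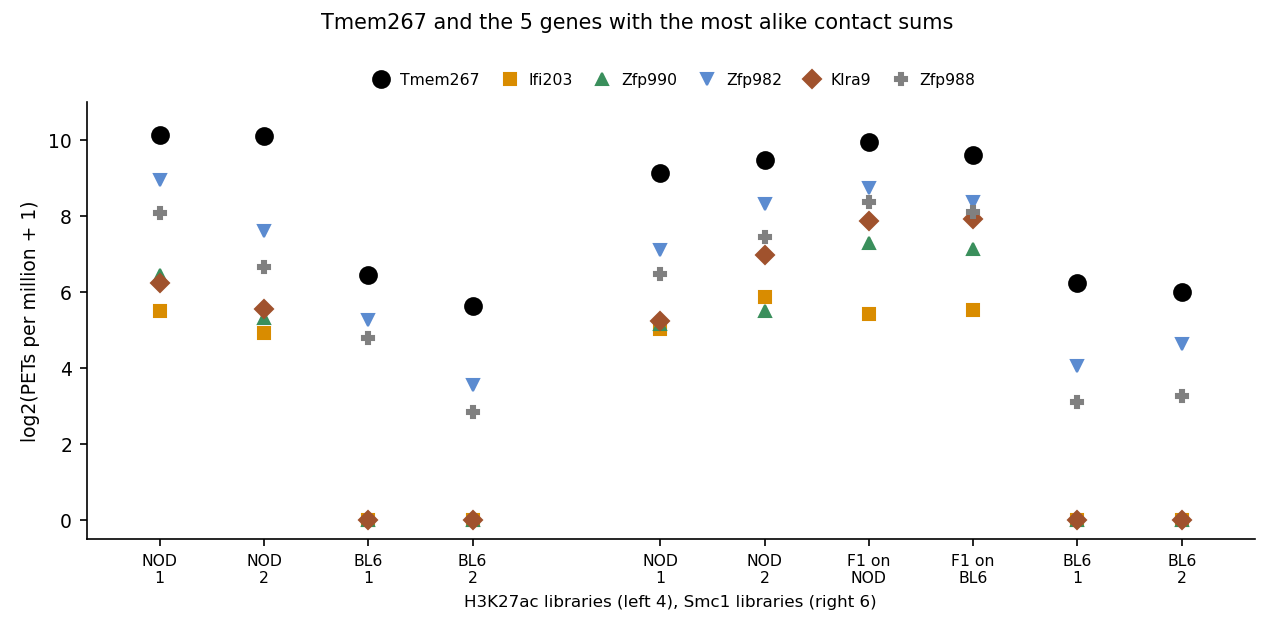
log2(PPM + 1) of Tmem267 and of the 5 genes with the most alike sums, in each table; symbols are genes, and 0 stands for no listed contact. Tmem267 is the highest of the 6 genes in every table, and Ifi203, Zfp990 and Klra9 have no listed contact in the 4 BL6 libraries.

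Zfp982 had 137 and 317 PPM in NOD Smc1 libraries, 429 and 331 PPM in the F1 library on the NOD and BL6 genomes, and 15.8 and 23.9 PPM in BL6 Smc1 libraries. Zfp988 had 88.4 and 176 PPM in NOD Smc1 libraries, 331 and 275 PPM in the F1 library, and 7.66 and 8.75 PPM in BL6 Smc1 libraries. Zfp990 had 35.0 and 44.8 PPM in NOD Smc1 libraries, 157 and 141 PPM in the F1 library and none listed in BL6 Smc1 libraries. As for Tmem267, the F1 library on the BL6 genome lay above both BL6 Smc1 libraries for each of these 5 genes. The 5 were chosen for following Tmem267 over these same tables, so the shared pattern is not a separate result.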

How the data were processed

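HiChIP interaction tables of 9 libraries were used, the F1 library in 2 forms. Per the file headers, each deposited row gives 2 anchors, the count of read pairs (PETs), the counts of reads at both anchors, a p-value and q-value, and the distance between anchors in bases (a signal value that is never negative), used as the authors deposited it. HiC-Pro, MACS, Juicer 1.7.6 and the build GRCm38 are listed, without roles, in the submitters' processing notes. All deposited tables list interactions of at least 2 PETs with a q-value of at most 0.05, so weaker contacts are missing.

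PETs were summed per gene body with 5 kb on either side, over 21627 protein-coding genes of the RefSeq table, and per pair of 25 kb bins. Contacts of the start segment and of the cluster were sorted by limits set from the listed anchors after these were seen. Counts were tested with edgeR 4.0.16 in R 4.3.3 (quasi-likelihood test, TMM, robust, filterByExpr, listed PETs as library size, Benjamini-Hochberg threshold 0.05). DESeq2 1.42.0, other filters, windows and bins, left-out libraries and a replicate block were alternatives.

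Named were the 3 genes, neighbours within 500 kb, up to 5 genes most like Tmem267 (mean of at least 20 PPM, outside that region), the mitochondrial list (its 2 highest members), 5 bin pairs and far partners of at least 5 PETs, of which 1 is not reported here. The members and lists were chosen with earlier results of these data known. The labels do not say that libraries of a group came from separate animals, so p-values measure only the spread between these samples.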

Additional observations from a re-analysis of the deposited data

How the results depend on the processing

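The H3K27ac difference of Tmem267 between NOD and BL6 was above 0 in all 12 alternatives and passed the threshold in 4. Its log2 value was 4.05 by DESeq2 (adjusted p 4.28e-08) and 4.07 with the replicate block (adjusted p 1.20e-06 by edgeR's quasi-likelihood test), and 3.64 to 4.49 with a library left out. For 4833420G17Rik the replicate block gave 5.79 (adjusted p 9.65e-05 by the same test), so that it passed too. The number of genes called in that comparison was 25 by DESeq2, 6 with no filter, 31 with the replicate block and 0 to 53 with a library left out. For H3K27ac against Smc1 it was 365 by DESeq2 and 0 to 1516 with a library left out in NOD, and 220 and 0 to 4809 in BL6, where the difference of Tmem267 was -0.80 to 0.051 with a library left out. For NOD against BL6 with Smc1 it was 23 with interactions of at least 3 PETs, 12 over gene bodies alone, 19 with windows at both gene ends, 42 with the replicate block and 6 to 647 with a library left out. Bin pairs called numbered 37 with 10 kb bins, 17 with the replicate block, 0 by DESeq2, 0 with no filter and 0 to 24 with a library left out. In the F1 library the Tmem267 ratio was 1.93 at spans of at least 10 kb, and 4833420G17Rik had 0 PETs over its body alone. The causes of these changes were not tested, and where a group was left with 1 library that library was assumed to vary like the others. The replicate numbers are not stated to mark a shared batch, and deviations of same-numbered libraries correlated at 0.217 with Smc1 and 0.541 with H3K27ac over genes (2 pairs each). Contacts under 2 PETs are not listed at any depth, and whether depth bears on the weak contacts of Nnt was not tested.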
